A study of Mus musculus with 8 samples.

Results

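Primitive endoderm is the epithelium that separates from the epiblast in the mouse blastocyst and goes on to line the yolk sac. The genes described here are 10 of its transcription factors and markers, Gata4, Gata6, Sox7, Sox17, Foxa2, Hnf4a, Dab2, Pdgfra, Sparc and Amn. They were taken from a list of names and not by a cutoff on their values, though earlier results of these data were known. All 10 are among the 19896 genes present in both deposited tables. RNA came from the pluripotent mouse embryonic stem cell line E14, in 4 groups of 2 libraries. Cct7 KD and Cct5 KD cells carried a doxycycline-inducible short hairpin (pLKO-Tet-on) against Cct7 or Cct5, which encode subunits of CCT, the chaperonin that folds actin and tubulin. Their controls, Cct7 KD Ctr and Cct5 KD Ctr, carried the empty vector. Every group, the controls included, underwent 14 days of puromycin selection (0.5 µg/ml) and 2 days of doxycycline (2 µg/ml), mainly in medium with serum and LIF. Per the series text the lines came from selected positive clones, and how many clones stand behind a group is not given. The study asked whether CCT5 and CCT7 keep pluripotent cells from becoming totipotent, the state of the early cleavage embryo. Endoderm was not its stated subject.

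In the blastocyst, FGF4 made by epiblast cells acts through FGF receptors on their neighbours, which then keep GATA6 while NANOG is lost. GATA6 and PDGFRA mark the endoderm precursors, and GATA4, SOX17 and SOX7 follow. The tissue then forms parietal endoderm, which lays down a thick basement membrane, and visceral endoderm, which takes up nutrients and makes serum proteins. Stem cell cultures in serum hold a few cells that turn on these genes spontaneously. In RNA from whole cultures, fewer cells of a type and less RNA per cell cannot be told apart.

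The authors deposited FPKM, fragments normalised for transcript length and library depth. A single step size explained nearly all low values in 6 libraries, and it put the FPKM denominators at 18.9 to 20.8 M fragments in Cct7 KD, 22.4 to 23.3 M in Cct7 KD Ctr, and 21.2 to 54.7 M in Cct5 KD Ctr. The hairpin target Cct7 stood at 14.4 and 17.8 FPKM in Cct7 KD, against 269 and 280 FPKM in Cct7 KD Ctr. Cct5 stood at 70.8 and 73.4 FPKM in Cct5 KD, against 368 and 367 FPKM in Cct5 KD Ctr. Arithmetic links the Cct5 KD columns to those of Cct7 KD: outside 15 genes, a Cct5 KD value is 1.125 times its same-numbered Cct7 KD counterpart plus a remainder that is never negative. The multiple makes up 71.3% of the Cct5 KD total in either replicate, no depth was accepted for these columns, and they are no second test of what Cct7 KD shows. Genes averaging 1 FPKM or more were tested on log2(FPKM + 1) with limma and Benjamini-Hochberg adjustment over all of them. Fold changes of low genes come out too small on that scale. No label tells whether replicates were cultured separately, and p-values then measure only the spread between libraries.

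In Cct7 KD, 8 of the 10 genes, Gata4, Gata6, Sox7, Foxa2, Dab2, Pdgfra, Sparc and Amn, were above both control libraries in both knockdown libraries. Hnf4a was below, and Sox17 overlapped its control. Of all genes in both tables, 51.5% were likewise above and 33.4% below, so the count by itself says little about these genes. What sets them apart from each other is the size of the difference and the number of fragments behind it. The ratio of mean FPKM, Cct7 KD over Cct7 KD Ctr, ran from 9.89 for Foxa2 through 4.65 for Sox7, about 2.8 to 2.9 for Gata6, Amn and Pdgfra, and 1.91 for Gata4, to 1.34 for Sparc, 1.31 for Dab2, 1.05 for Sox17 and 0.303 for Hnf4a.

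**Figure D1:**
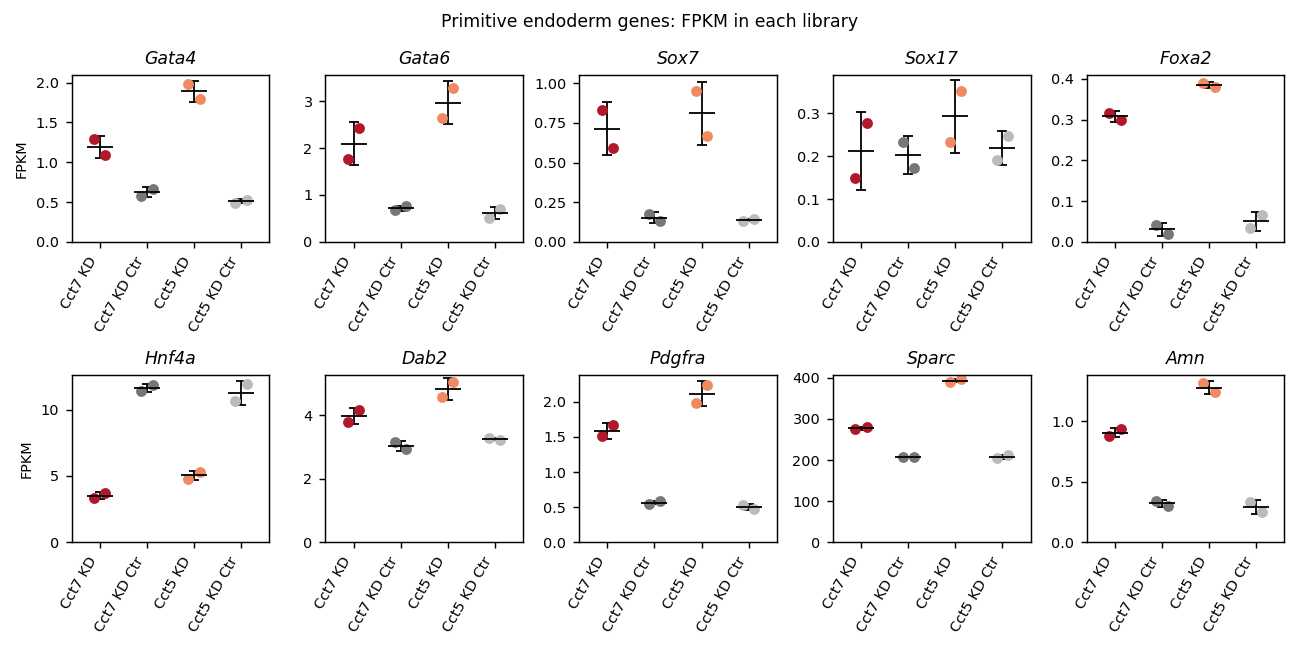
Each panel plots the deposited FPKM (vertical axis, linear and starting at 0) of one gene in the 8 libraries, with points for libraries and black bars for the group mean ± SD of 2. The knockdown points lie above their own controls for 8 genes, below them for Hnf4a, and among them for Sox17.

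The genes lay at very different levels before any knockdown. Sparc was at 204 to 211 FPKM over the 4 control libraries, with 98.5% of genes below its mean. Hnf4a was listed at 10.6 to 11.9 FPKM and Dab2 at 2.92 to 3.27 FPKM. Gata6, Gata4 and Pdgfra lay between 0.468 and 0.756 FPKM, and their control ranges overlap, so no order among these 3 is drawn. Amn followed at 0.249 to 0.342 FPKM, Sox17 at 0.172 to 0.247 FPKM and Sox7 at 0.130 to 0.176 FPKM, with Sox17 and Sox7 overlapping by 1 library. Foxa2, at 0.0202 to 0.0664 FPKM, was close to silent.

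Because the denominators are known, FPKM values can be turned back into fragments once the authors' transcript length is known. For all 10 genes exactly one annotated transcript gave whole numbers in all 6 libraries with a depth and in both remainders, within 0.05 of a fragment. In 99.7% of 8908 genes that were whole at a single length, that transcript was the one spanning most of the genome, whatever its own length. For Gata4, Gata6, Sox7, Sox17, Foxa2, Dab2, Pdgfra and Amn it is a form of 1701 to 6549 bp. For Sparc it is a form of 1269 bp, while the longest annotated form has 2300 bp, so its FPKM would read lower at that length. For Hnf4a it is a form of 431 bp, while the longest annotated form has 4362 bp.

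The 2 GATA factors bind the same DNA letters, and GATA6 is the earlier of the pair in primitive endoderm. Gata6 (chromosome 18, 11052064 to 11085635, GRCm38) had 1.77 and 2.42 FPKM in Cct7 KD, against 0.678 and 0.756 FPKM in Cct7 KD Ctr. Those values stand for 119 and 148 fragments in Cct7 KD and 49 and 57 fragments in Cct7 KD Ctr. The ratio of fragment rates was 2.90 (exact 95% interval 2.31 to 3.67), an interval that covers counting error only, as do all those given here. The knockdown libraries were apart from each other by more than the controls were, and both were above them. Gata4 (chromosome 14, 63198922 to 63271692) had 1.29 and 1.09 FPKM in Cct7 KD, against 0.579 and 0.669 FPKM in Cct7 KD Ctr. With 91 and 70 fragments in Cct7 KD against 44 and 53 in Cct7 KD Ctr, its rate ratio was 1.91 (1.48 to 2.48). Their groups did not overlap, and both genes remained low in absolute terms, with 41.5% of genes below Gata6 and 33.6% below Gata4 in Cct7 KD.

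Sox7 and Sox17 are close relatives of the SOX F family, and SOX17 is the one tied to primitive endoderm differentiation in stem cells, while SOX7 marks parietal endoderm. Sox7 (chromosome 14, 63943673 to 63950732) had 0.831 and 0.594 FPKM in Cct7 KD, against 0.176 and 0.130 FPKM in Cct7 KD Ctr. It rested on 57 and 37 fragments in Cct7 KD and 13 and 10 in Cct7 KD Ctr, a rate ratio of 4.71 (2.96 to 7.78). Sox17 (chromosome 1, 4490931 to 4497354) had 0.148 and 0.278 FPKM in Cct7 KD, against 0.235 and 0.172 FPKM in Cct7 KD Ctr. Its 10 and 17 fragments in Cct7 KD and 17 and 13 in Cct7 KD Ctr gave a rate ratio of 1.04 (0.593 to 1.80). The intervals of the 2 relatives do not overlap, and the counting error of Sox17 leaves room for a rise of up to 1.80-fold.

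Foxa2 is a forkhead factor of visceral and definitive endoderm, and Hnf4a is a nuclear receptor that drives serum protein genes in visceral endoderm and liver. Foxa2 (chromosome 2, 148042877 to 148046969) had 0.317 and 0.299 FPKM in Cct7 KD, against 0.042 and 0.020 FPKM in Cct7 KD Ctr. These are 14 and 12 fragments in Cct7 KD and 2 and 1 in Cct7 KD Ctr, so that the rate ratio of 9.98 has an interval of 3.06 to 51.5. Foxa2 thus had the highest ratio of the 10 genes and the fewest fragments.

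Hnf4a (chromosome 2, 163506808 to 163572910) went the other way. It was listed at 3.35 and 3.69 FPKM in Cct7 KD, against 11.4 and 11.8 FPKM in Cct7 KD Ctr. Behind these lie only 30 fragments in each Cct7 KD library and 110 and 119 in the Cct7 KD Ctr libraries, a rate ratio of 0.302 (0.223 to 0.402). At the length of its longest form the same fragments would read 0.331 and 0.364 FPKM in Cct7 KD and 1.13 and 1.17 FPKM in Cct7 KD Ctr. In the controls Hnf4a would then lie between Gata6 and Dab2, not above Dab2. The length does not touch the ratio. Whether the fragments were counted over all exons of Hnf4a or over the short form alone cannot be read from the values.

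RefSeq gives a window for 2 Hnf4a start sites, the upstream one at 163506857, while the gene as annotated by GENCODE begins before it, at 163506808. Sequences are shown for Hnf4a, which was lower in Cct7 KD, and for Dab2, which was higher. Capitals mark a match to the letters AGATAA, to AGATAG, to TGATAA or to TGATAG, which GATA factors bind, searched on both strands in the windows that RefSeq gives around each start (GRCm38.p6, plus strand for all 3).
Hnf4a upstream start, chr2:163506707-163506816: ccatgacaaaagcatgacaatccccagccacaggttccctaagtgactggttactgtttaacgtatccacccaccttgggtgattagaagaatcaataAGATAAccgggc
Hnf4a downstream start, chr2:163547005-163547114: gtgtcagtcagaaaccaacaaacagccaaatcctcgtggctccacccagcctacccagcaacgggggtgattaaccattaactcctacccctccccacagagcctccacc
Dab2 first start, chr15:6299589-6299698: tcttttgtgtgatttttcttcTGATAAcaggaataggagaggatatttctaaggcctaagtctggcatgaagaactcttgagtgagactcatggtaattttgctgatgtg

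The matches shown begin 52 bases before the upstream RefSeq start of Hnf4a and 179 bases before the RefSeq start of Dab2. The Dab2 window holds another match, 14 bases after that start. No match was found in the window of the downstream Hnf4a start. The letters occurred in 3 of 10 windows of the 6 genes with a window in the table, against 29.6% of all 32544 windows. These 3 were windows of Hnf4a, Dab2 and Foxa2, and that of Foxa2, which was higher too, is not printed. The last 9 bases shown of the upstream Hnf4a window, among them the end of its match, lie in an annotated exon. The other sequences shown lie in none. A match describes letters, and nothing about binding follows from it.

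Dab2 and Amn work together in the endoderm. DAB2 is the endocytic adaptor that links receptors such as megalin to clathrin, and amnionless, the product of Amn, is the membrane anchor of cubilin. Dab2 (chromosome 15, 6299788 to 6440712) had 3.78 and 4.15 FPKM in Cct7 KD, against 3.15 and 2.92 FPKM in Cct7 KD Ctr. With 298 and 297 fragments in Cct7 KD and 267 and 258 in Cct7 KD Ctr, its rate ratio was 1.31 (1.16 to 1.47). Amn (chromosome 12, 111271095 to 111276426) had 0.877 and 0.934 FPKM in Cct7 KD, against 0.342 and 0.303 FPKM in Cct7 KD Ctr, from 31 and 30 fragments against 13 and 12. Both were above their controls, Amn by more. The receptors they serve gave other values. Cubilin (Cubn) averaged 0.119 ± 0.0015 FPKM in Cct7 KD and 1.04 ± 0.064 FPKM in Cct7 KD Ctr (SD, n = 2 each), below the level at which it was tested. Megalin (Lrp2) averaged 5.42 ± 0.035 FPKM in Cct7 KD and 5.13 ± 0.37 FPKM in Cct7 KD Ctr, a log2 change of 0.07 that did not pass the limma test (adjusted p = 0.38).

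Pdgfra, the receptor tyrosine kinase that marks primitive endoderm and supports its survival, and Sparc, a secreted matrix protein abundant in parietal endoderm, lie far apart in level. Pdgfra (chromosome 5, 75152292 to 75198215) had 1.51 and 1.67 FPKM in Cct7 KD, against 0.546 and 0.583 FPKM in Cct7 KD Ctr. It rested on 205 and 206 fragments in Cct7 KD and 80 and 89 in Cct7 KD Ctr, a rate ratio of 2.80 (2.34 to 3.37). Sparc (chromosome 11, 55394500 to 55423183) had 275 and 280 FPKM in Cct7 KD, against 208 and 207 FPKM in Cct7 KD Ctr. Its 7248 and 6715 fragments in Cct7 KD and 5897 and 6139 in Cct7 KD Ctr gave a rate ratio of 1.34 (1.30 to 1.37). Both genes separated the groups without overlap.

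**Figure D2:**
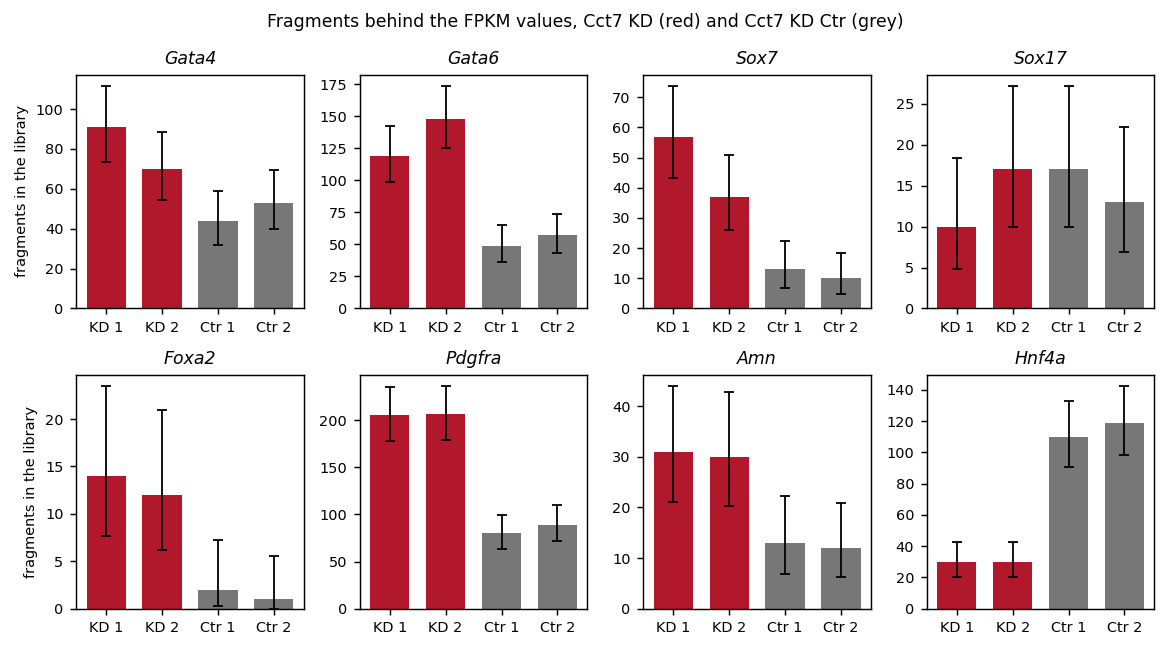
Bars give the fragments behind the values of the 8 less abundant genes in each Cct7 KD (red) and Cct7 KD Ctr (grey) library, with exact 95% Poisson intervals as lines. The vertical axis starts at 0 and differs between panels. The control intervals of Foxa2 rest on 2 and 1 fragments, and the 4 intervals of Sox17 overlap.

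Only 5 of the 10 genes reached the mean of 1 FPKM needed for the limma test in Cct7 KD. Gata6, Pdgfra, Sparc and Dab2 rose and Hnf4a fell, where 81.4% of the 13552 genes tested were called, 49.3% higher and 32.2% lower. Gata6 and Pdgfra reached that mean only through the knockdown libraries, so their share of calls is not read as support. The log2 change of Gata6 was 0.84 (SE 0.12, adjusted p = 0.00142 in limma), of Pdgfra 0.72 (SE 0.090, adjusted p = 0.000658 in limma) and of Sparc 0.42 (SE 0.025, adjusted p = 3.74e-05 in limma). Hnf4a changed by -1.48 (SE 0.061, adjusted p = 1.06e-05 in limma). The change of Dab2, 0.30 (SE 0.075, adjusted p = 0.0122 in limma), was the least secure. It missed the threshold after median-of-ratios scaling, at 0.12 (adjusted p = 0.187 in limma), nor without replicate 2 of Cct7 KD (0.25) or of Cct7 KD Ctr (0.26). Without either Cct7 KD library Pdgfra no longer reached 1 FPKM and was not tested.

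The median of all genes tested changed by 0.15, and scaling by the median of ratios moved it to -0.05. After that scaling Gata6 stood at 0.71, Pdgfra at 0.61, Sparc at 0.18 and Hnf4a at -1.68, so that 4 of the 5 still passed the limma threshold, where 80.8% of genes were called, 37.7% higher and 43.1% lower. At a fold of at least 2 on the unscaled log2 scale Hnf4a alone was called, where 13.3% of genes were called higher and 6.61% lower. This call depends on the short length of Hnf4a. At the length of its longest form Hnf4a would change by -0.67 with a mean of 0.748 FPKM, below both the 2-fold limit and the minimum for the test. The 5 genes below the minimum had unscaled differences of 0.57 (Sox7), 0.53 (Amn), 0.43 (Gata4), 0.34 (Foxa2) and 0.01 (Sox17), with no test. With no minimum, limma called 9 of the 10, Sox17 being the exception, where 69.3% of all 19896 genes were called.

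**Figure D3:**
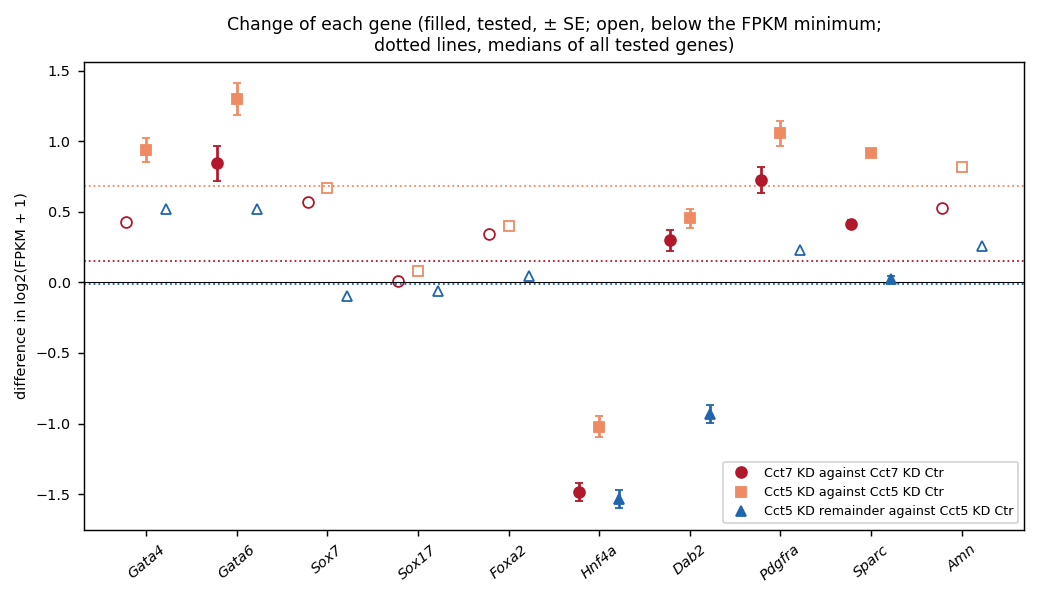
The vertical axis is the difference in log2(FPKM + 1) of each gene for Cct7 KD (red circles), Cct5 KD (orange squares) and the Cct5 KD remainder after scaling (blue triangles), each against its control. Filled symbols were tested and carry ± SE, open symbols lay below the minimum, and dotted lines are the medians of all genes tested. Hnf4a is low in all 3, and Dab2 is low only in the remainder, at -0.93.

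In Cct5 KD the same genes were above (8) and below (1) their control, where 76.3% of all genes were above and 13.8% below. Gata6 had 2.65 and 3.29 FPKM in Cct5 KD, against 0.520 and 0.699 FPKM in Cct5 KD Ctr. Gata4 had 1.98 and 1.79 FPKM in Cct5 KD, against 0.494 and 0.526 FPKM in Cct5 KD Ctr. Hnf4a had 4.80 and 5.29 FPKM in Cct5 KD, against 10.6 and 11.9 FPKM in Cct5 KD Ctr. These directions follow in large part from the Cct7 KD values that the columns contain. Pdgfra had 1.99 and 2.24 FPKM in Cct5 KD, against 0.527 and 0.468 FPKM in Cct5 KD Ctr. Sparc had 391 and 396 FPKM in Cct5 KD, against 204 and 211 FPKM in Cct5 KD Ctr. Dab2 had 4.58 and 5.05 FPKM in Cct5 KD, against 3.27 and 3.23 FPKM in Cct5 KD Ctr. The groups did not overlap for any of these 6 genes.

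Among the 4 members below the minimum, Sox7 had 0.952 and 0.668 FPKM in Cct5 KD, against 0.133 and 0.143 FPKM in Cct5 KD Ctr. Amn had 1.31 and 1.24 FPKM in Cct5 KD, against 0.333 and 0.249 FPKM in Cct5 KD Ctr. Foxa2 had 0.390 and 0.380 FPKM in Cct5 KD, against 0.034 and 0.066 FPKM in Cct5 KD Ctr. These 3 were higher in Cct5 KD without overlap, while Sox17, at 0.233 and 0.353 FPKM in Cct5 KD against 0.192 and 0.247 FPKM in Cct5 KD Ctr, overlapped its control.

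All 6 genes tested in Cct5 KD passed the limma test, 5 higher and Hnf4a lower, where 89.8% of 14090 genes were called, 78.3% higher. The log2 changes were 1.30 for Gata6, 1.06 for Pdgfra, 0.93 for Gata4, 0.92 for Sparc, 0.45 for Dab2 and -1.02 for Hnf4a, with adjusted p-values in limma between 5.84e-07 and 0.000856. Gata4, Gata6 and Pdgfra reached the minimum only through the knockdown libraries, and the median of all genes tested was itself 0.68. After median-of-ratios scaling Dab2 turned to -0.20 and Sparc stood at 0.10, while Gata6 (0.83), Pdgfra (0.64) and Gata4 (0.53) stayed positive and Hnf4a stood at -1.74, all 6 past the threshold in limma, where 81.8% of genes were called. At a fold of at least 2 before scaling, Gata6 and Pdgfra were called higher (31.1% of genes) and Hnf4a lower (2.15%). The call of Hnf4a again depends on its short length. At the length of its longest form Hnf4a would read 0.475 and 0.522 FPKM in Cct5 KD, against 1.05 and 1.18 FPKM in Cct5 KD Ctr. Its mean would then lie below the minimum for the test, and its change would fall short of 2-fold on this log2 scale.

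Taking the multiple of Cct7 KD out of the Cct5 KD columns left different amounts of each gene. Of Sox7, 1.70% and 0% of the Cct5 KD value lay in the remainder, in replicates 1 and 2, and of Dab2 7.18% and 7.70%. For Gata4 it was 27.0% and 31.6%, and for Sparc 20.8% and 20.5%. The remainder values again came in whole steps, at denominators of 56.1 and 52.9 M fragments. In these units Sox7 had 3 and 0 fragments in the remainder, against 24 and 10 in Cct5 KD Ctr, and Dab2 had 70 and 78 in the remainder, against 678 and 260 in Cct5 KD Ctr. Gata4 had 102 and 102 fragments in the remainder, against 92 and 38 in Cct5 KD Ctr. Sox7 and Dab2 thus had fewer fragments in either remainder than in either control library, and Gata4 did not.

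**Figure D4:**
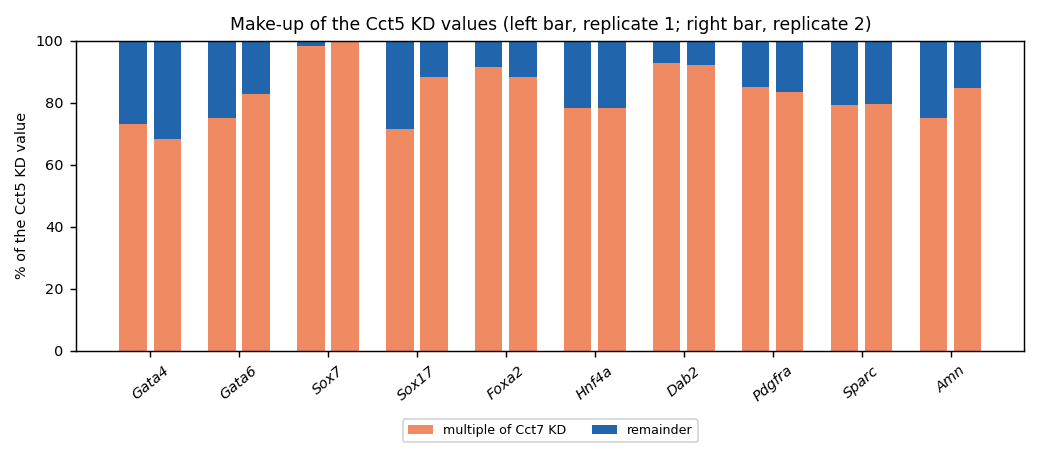
Each pair of bars splits the Cct5 KD value of one gene (replicate 1 left, replicate 2 right) into the multiple of Cct7 KD (orange) and the remainder (blue), in percent. The remainder runs from 0% of Sox7 to 31.6% of Gata4, both in replicate 2.

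Per denominator and before any scaling, the rate ratio of the remainder over Cct5 KD Ctr was 1.09 for Gata4 (0.874 to 1.37), 1.07 for Gata6 (0.862 to 1.33), 0.645 for Pdgfra (0.538 to 0.774), 0.394 for Sparc (0.385 to 0.403), 0.110 for Dab2 (0.0919 to 0.131), 0.0988 for Hnf4a (0.0722 to 0.133) and 0.0615 for Sox7 (0.0121 to 0.196). Sox17 stood at 0.260 (0.145 to 0.448), Foxa2 at 0.897 (0.297 to 2.83) and Amn at 0.837 (0.539 to 1.31). The median of all genes was 1.15 lower on the log2(FPKM + 1) scale here, so these are best read relative to each other. After median-of-ratios scaling Gata4 and Gata6 differed by 0.52 each and Pdgfra by 0.23, all untested, as they lay below the minimum. Of the 3 genes tested, Hnf4a fell by 1.54 (SE 0.065, adjusted p = 2.86e-06 in limma) and Dab2 fell by 0.93 (SE 0.063, adjusted p = 2.08e-05 in limma), where 84.9% of 11688 genes were called, 41.6% higher and 43.3% lower. Dab2 reached the minimum only through its controls, with 0.531 and 0.621 scaled FPKM in the remainder, against 2.02 and 1.99 scaled FPKM in Cct5 KD Ctr, so its call is not read as support. Hnf4a alone fell at least 2-fold, as 9.3% of genes did. Its call depends on its short length here too. At the length of its longest form Hnf4a would read, before scaling, 0.102 and 0.113 FPKM in the remainder, against 1.05 and 1.18 FPKM in Cct5 KD Ctr. After scaling its mean would then lie below the minimum for the test, and its change would fall short of 2-fold on this log2 scale. Sparc, at 0.02 (SE 0.026, adjusted p = 0.437 in limma), did not pass. With no minimum, 7 of the 10 genes were called, where 69.2% of all genes were.

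The difference of the changes, Cct5 KD minus Cct7 KD, was tested over all 8 libraries. It passed for Gata4 (0.50), Sparc (0.50), Hnf4a (0.46), Gata6 (0.46) and Pdgfra (0.33) and not for Dab2 (0.15, adjusted p = 0.156 in limma), where 83.8% of 13840 genes were called and the median of all genes was 0.49. Gata4, Gata6 and Pdgfra averaged 0.567, 0.663 and 0.531 FPKM over the 4 control libraries. They reached the minimum only through the knockdown libraries, so their calls are not read as support. None of the members reached a difference of at least 2-fold, which 3.72% of genes did. After median-of-ratios scaling Dab2 alone passed, at -0.32 (adjusted p = 0.0407 in limma), where 24.0% were called. The 2 control groups carried the same vector, and none of the 6 members tested differed between Cct5 KD Ctr and Cct7 KD Ctr in limma (adjusted p-values between 0.494 and 0.985, and 0 with an unadjusted p under 0.05), where 3.21% of genes were called.

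The genes upstream and around primitive endoderm were described from 11 further lists, in Cct7 KD against Cct7 KD Ctr. Of all genes tested there, 49.3% were called higher and 32.2% lower, or 37.7% and 43.1% after median-of-ratios scaling. All 9 epiblast factors fell, with a median log2 change of -2.01, against 0.15 over all genes tested. Nanog, which opposes Gata6 in the blastocyst, averaged 68.8 ± 2.3 FPKM in Cct7 KD and 299.5 ± 0.93 FPKM in Cct7 KD Ctr (SD, n = 2 each). Tdgf1 changed by -2.72, Pou5f1 by -1.91 and Sox2 by -2.01. In the list of FGF and PDGF signalling, 8 of 12 genes rose and 4 fell, which became 3 and 5 after median-of-ratios scaling. Pdgfc, among the 4 that fell, reached the minimum only through its controls. Fgf4, the ligand that drives the endoderm fate, fell most of all in that list, to 66.8 ± 1.7 FPKM in Cct7 KD, against 1051 ± 0.23 FPKM in Cct7 KD Ctr. Its receptors Fgfr1 and Fgfr2 changed by 0.22 and 0.25 and the PDGFRA ligand Pdgfa by 0.19. The signalling intermediates Grb2 and Ptpn11 changed by 0.48 and 0.56 and the receptor gene Kit by -0.33. Gata6 and Pdgfra were therefore higher in the same libraries in which Nanog and Fgf4 were both lower.

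Of 15 tested genes of parietal endoderm and basement membrane, 12 rose and 3 fell (9 and 3 after scaling), with a median of 0.72. Of all genes tested, 49.3% rose and 32.2% fell (37.7% and 43.1% after scaling). Plat, among the 12 that rose, reached the minimum only through the knockdown libraries. The genes of this list with the smallest p were collagen-processing enzymes and a collagen chaperone, Serpinh1 at 3.10, P4ha1 at 1.80, Plod2 at 1.61 and P4ha2 at 1.26. These are made by many matrix-producing cells. Of the structural genes, Col4a1 changed by 0.31, Col4a2 by 0.72, and the laminin genes Lama1, Lamb1 and Lamc1, the 3 that fell, by -0.43, -0.32 and -0.12. Of 8 tested visceral endoderm genes 6 rose and 1 fell, with a median of 0.77. With no minimum, 7 of the 14 in the tables were called higher and 4 lower, with a median of 0.32. Afp, the fetal serum protein of the yolk sac, averaged 5.28 ± 0.67 FPKM in Cct7 KD and 0.064 ± 0.0019 FPKM in Cct7 KD Ctr, so it reached the minimum only through the knockdown. The transport proteins Trf and Rbp4 rose by 1.05 and 0.84 on the log2 scale. Apoe, at 45.5 ± 1.7 FPKM in Cct7 KD and 112 ± 4.3 FPKM in Cct7 KD Ctr, was the tested gene that fell. The apolipoprotein genes Apoa2 and Apom, too low to be tested, averaged 0.098 and 0.273 FPKM in Cct7 KD and 1.69 and 1.08 FPKM in Cct7 KD Ctr. The summed level of the 14 visceral genes was 80.5 and 78.9 FPKM in Cct7 KD, against 130 and 135 FPKM in Cct7 KD Ctr. Without Apoe the other 13 summed to 33.7 and 34.6 FPKM in Cct7 KD, against 20.4 and 19.5 FPKM in Cct7 KD Ctr.

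**Figure D5:**
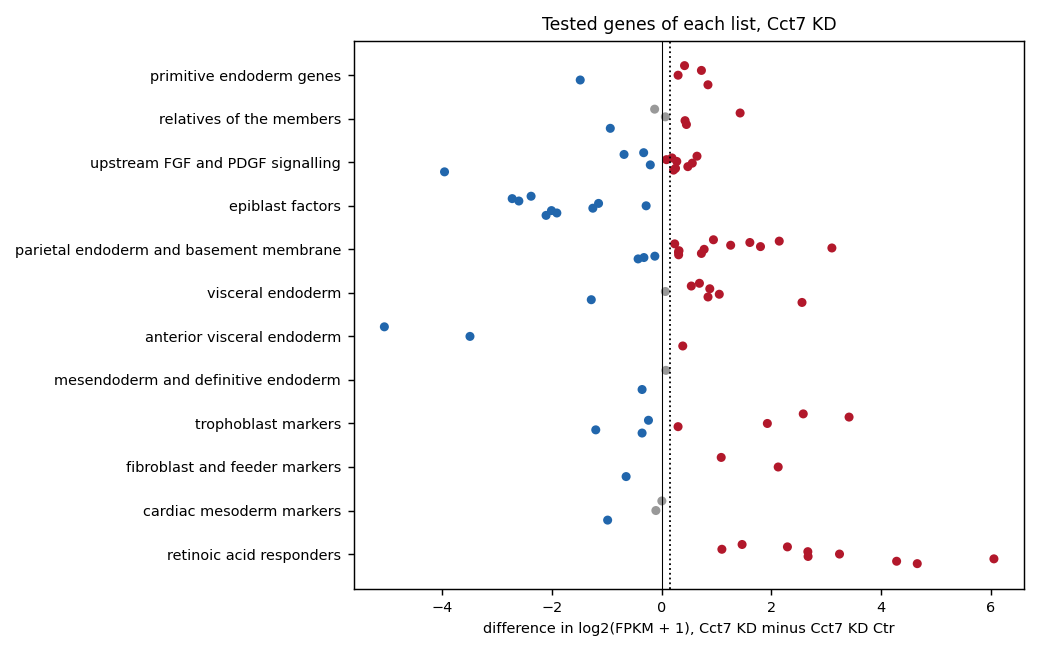
Each point is a tested gene of a list, placed by its difference in log2(FPKM + 1), Cct7 KD minus Cct7 KD Ctr, in red where it rose, blue where it fell and grey where it did not pass. The dotted line is the median of all genes tested, 0.15. All 9 epiblast factors lie to its left and all 9 tested retinoic acid responders to its right.

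Among 3 anterior visceral endoderm genes Hhex rose by 0.38, and Otx2 and Lefty1, which epiblast cells also express, changed by -5.05 and -3.49. In the relatives of the 10 genes 3 of 6 rose and 1 fell, where 49.3% of all genes tested rose and 32.2% fell. Pdgfrb, the sister receptor of Pdgfra, rose by 1.43, Gata2 by 0.45 and Dab1 by 0.43, while Gata1 changed by -0.94. Gata2 reached the minimum only through the knockdown libraries. In limma, 2 of these 6 did not pass.

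Markers of other cell types moved with these genes, and their part in the results was not tested. All 9 tested retinoic acid responders rose, with a median of 2.67, among them Stra8 at 6.05, Rarb at 4.66 and Cyp26a1 at 4.28. Of these 9, 7 reached the minimum only through the knockdown libraries. Of 7 tested trophoblast markers 4 rose and 3 fell, where 49.3% of all genes tested rose and 32.2% fell. Krt8 (3.41) and Krt18 (2.58), keratins that endoderm also makes, and Esx1 (1.93) were higher, and Tfap2c changed by -1.20. The summed trophoblast level was 245 and 247 FPKM in Cct7 KD, against 63.3 and 62.9 FPKM in Cct7 KD Ctr, but without the 2 keratins the other 9 genes summed to 39.35 and 39.96 FPKM in Cct7 KD, against 39.0 and 37.1 FPKM in Cct7 KD Ctr. The trophoblast factor Elf5 averaged 0.249 FPKM in Cct7 KD and 0.163 FPKM in Cct7 KD Ctr. Of 3 fibroblast and feeder markers Fbn1 (2.12) and Twist1 (1.08) rose, both reaching the minimum only through the knockdown libraries, and Thy1 changed by -0.65. The 6 fibroblast markers in the tables summed to 13.6 and 14.4 FPKM in Cct7 KD, against 9.81 and 10.7 FPKM in Cct7 KD Ctr. Col1a1, Col1a2 and Prrx1, below the minimum, averaged 0.812, 0.634 and 0.132 FPKM in Cct7 KD and 0.628, 0.160 and 0.0045 FPKM in Cct7 KD Ctr. With no minimum 4 of the 6 fibroblast markers were called higher and 1 lower, where 69.3% of all genes were called. Cardiac mesoderm, which shares Gata4 and Gata6, showed Myl7 at -0.98 and no call for Tnnt2 or Myh6, with a summed level of 9.54 and 9.46 FPKM in Cct7 KD, against 14.9 and 15.5 FPKM in Cct7 KD Ctr. Without Myl7 the other 7 genes summed to 3.58 and 3.99 FPKM in Cct7 KD, against 2.86 and 2.99 FPKM in Cct7 KD Ctr. Mef2c, Isl1 and Kdr, below the minimum, averaged 0.319, 0.414 and 0.474 FPKM in Cct7 KD and 0.017, 0.138 and 0.180 FPKM in Cct7 KD Ctr. With no minimum 4 of the 8 cardiac genes were called higher and 1 lower. The cardiac factors Nkx2-5 and Tbx5 averaged 0.225 and 0.038 FPKM in Cct7 KD and 0.081 and 0.050 FPKM in Cct7 KD Ctr. Of the mesendoderm and definitive endoderm list, which Sox17 and Foxa2 also mark, Eomes changed by -0.36 and Cxcr4 by 0.08 without passing, and T averaged 0.174 FPKM in Cct7 KD and 0.161 FPKM in Cct7 KD Ctr. Eomes, counted among the trophoblast markers too, reached the minimum only through its controls.

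In the scaled remainder of Cct5 KD, where the median of all genes tested was -0.01, the same lists gave another picture. All 9 epiblast factors fell, with a median of -1.24, and all 7 tested retinoic acid responders rose, with a median of 2.27. Of 5 tested trophoblast markers, however, all fell, Krt8 by 0.31 and Krt18 by 0.46 on the log2 scale. Afp, given here before scaling, stood at 0.035 and 0.101 FPKM in the remainder, against 0.097 and 0.046 FPKM in Cct5 KD Ctr, and the groups overlapped. In the scaled remainder Trf (2.05) and Rbp4 (1.45) rose too. Of 15 parietal and basement membrane genes 10 rose and 5 fell, with Serpinh1 at 2.90, where 41.6% of all genes tested rose and 43.3% fell. The controls themselves differed in this list. Of 15 such genes tested between them, 6 were lower in Cct5 KD Ctr than in Cct7 KD Ctr and 0 higher, where 3.21% of all genes were called. Sox7, Dab2 and the keratins, all higher in Cct7 KD, were not higher than the control in the scaled remainder, and Hnf4a was lower in both. For Afp, too low to be tested there, no direction in the remainder is drawn.

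For each gene tested in Cct7 KD the most similar profiles over the 8 libraries were sought, by the root mean square distance of centred log2(FPKM + 1) values. Gata6 was nearest to Fam241a (0.059) and Cnn1 (0.061), Pdgfra to Itih5 (0.027) and Sh3pxd2a (0.028), and Hnf4a to Pced1b (0.023) and Zfp710 (0.049). Dab2 was nearest to Map1a (0.029) and Trib1 (0.036) and Sparc to Agpat1 (0.017) and Dlst (0.020). All 8 libraries include the Cct5 KD columns, which hold Cct7 KD values. None of these neighbours is one of the 10 genes.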

How the data were processed

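Poly(A) RNA of 8 libraries was read as 150 bp pairs from libraries that keep strand, per the labels' protocols. The authors deposited gene-level FPKM as a pair of tables, a knockdown and its control in each. HTSeq and mm10 are named per the submitters' processing notes, with no version, aligner or annotation. IDs listed more than once (8 in the Cct5 table, 6 in the Cct7 table) were left out. Symbols and coordinates came from GENCODE vM21 (GRCm38, also called mm10).

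Genes averaging 1 FPKM or more were tested on log2(FPKM + 1) by limma 3.58.1 (eBayes, trend on) in R 4.3.3. Knockdowns were fitted with their own controls, 4 libraries at a time, and the difference and the controls over all 8. Adjusted p under 0.05 counted as changed. The test was also run on simulated data, and the outcome is not given here. Depth was taken as the smallest denominator at which at least 95% of values between 0.5 and 20 fragments were whole within 0.05, and fragments were recovered from it, since no counts were at hand. The remainder was scaled with its controls by the median of ratios. A fragment is not always an independent molecule, so intervals cover counting error only.

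The members and the lists were chosen with earlier results of these data known. Named genes were all 10 members, the 4 genes per list with the smallest p in Cct7 KD, Nanog, Fgf4, Fgfr1, Fgfr2 and Pdgfa, and the 2 nearest profiles of each tested member. One gene that this rule names is not reported here. Others (the receptors Cubn and Lrp2, the structural matrix genes, Elf5, Col1a1, Col1a2, Prrx1, Apoa2, Apom, Mef2c, Isl1, Kdr, Nkx2-5, Tbx5 and T) were added after their values were seen. Alternatives were other scalings, no minimum, a fold of at least 2, a pseudocount of 0.1, a replicate block, all libraries in one fit and leaving out each library.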

Additional observations from a re-analysis of the deposited data

Results flagged for a closer look

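The change of 5 genes differed between the knockdowns in the test of the difference itself, Cct5 KD minus Cct7 KD. The values were 0.50 for Gata4, 0.46 for Gata6, 0.46 for Hnf4a, 0.33 for Pdgfra and 0.50 for Sparc on the log2(FPKM + 1) scale, where the median of all genes was 0.49. Gata4, Gata6 and Pdgfra were tested only because of their knockdown libraries, and their calls are not read as support. The Cct5 KD values contain a multiple of the Cct7 KD values, and total FPKM was 745912 and 744177 in Cct5 KD, against 495553 and 496684 in Cct5 KD Ctr. Of the 5 genes, 4 were still tested after median-of-ratios scaling, and none of them passed.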

How the results depend on the processing

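Counts of the 10 genes called in limma moved with the minimum and the fold asked for. With no minimum 9 were called in Cct7 KD (5 with it) and 7 in the remainder (2 with it). With a fold of at least 2, 1 was called in Cct7 KD (2704 of all genes), 3 in Cct5 KD (4682), 1 in the remainder (2051), 0 for the difference (515) and 0 between controls (2). The difference called 1 member and 3289 genes after median-of-ratios scaling, 2 and 4125 at a common total, and 2 and 9471 of 12638 with the remainder in place of Cct5 KD. Between the controls, 252 genes were called with no minimum. Leaving out each library gave 3 to 6 members in Cct7 KD (10239 to 10746 of all genes), 5 to 6 in Cct5 KD (12048 to 12479), 2 in the remainder (9397 to 9623) and 2 to 5 for the difference (10883 to 11328), and 0 to 130 genes between the controls, where 444 were called with all libraries and each of the 8 libraries lowered the count. A library left alone in its group is assumed to vary like the other groups. The 3 in Cct7 KD came without its replicate 2. The difference fell to 2 without replicate 2 of Cct5 KD and to 3 without replicate 1 of Cct7 KD or replicate 2 of Cct5 KD Ctr.

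Several values turned sign. Dab2 in Cct5 KD was -0.20 after median-of-ratios scaling and -0.015 at a common total, and Sparc in the remainder was -1.34 unscaled. For the difference, median-of-ratios scaling gave -0.015 for Hnf4a, -0.32 for Dab2, -0.032 for Pdgfra and -0.089 for Sparc. A common total gave -0.060, -0.37, -0.082 and -0.15 in the same order. The remainder gave -0.016 for Hnf4a, -1.16 for Dab2 and -0.16 for Sparc. The cause was not tested.

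At its longest form's length, an alternative chosen after seeing the data, Hnf4a changed by -0.67 in Cct7 KD. With the replicate number as a block 5 members were called in Cct7 KD and 6 in Cct5 KD, with 10946 and 12717 of all genes. Same-numbered libraries did not deviate together (correlations of -0.036 and -0.012), so the numbers are not taken as pairs. Depth limits Foxa2, Sox17, Sox7 and Amn most.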
